A study of Mus musculus with 9 samples.

Results

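The 96 genes described here are those of the protein subunits of mitochondrial oxidative phosphorylation, their assembly factors and close relatives, pseudogenes among them, in mouse skin. They were chosen by symbol: every gene named by a single-symbol probe cluster (a transcript cluster, the array's unit of measurement) whose name starts with Ndufa, Ndufb, Ndufc, Ndufs, Ndufv, Uqcr, Cox4i, Cox5, Cox6, Cox7, Cox8 or Atp5, or is Sdha, Sdhb, Sdhc or Sdhd. The rule uses names and not differences between groups, though it was set with earlier results of these data known, and where a symbol had several clusters the one with the highest mean over the 9 arrays stands for it. The 96 stand among 30142 named genes. They comprise 36 genes of complex I, 8 of its assembly factors, 4 of complex II, 9 of complex III, 20 of complex IV and 19 of complex V. Ndufa11b of complex I, Uqcrh-ps1 of complex III, and Atp5c1-ps and Atp5l-ps1 of complex V are annotated as pseudogenes. Total RNA of whole neck skin from male C57BL/6 mice aged 6 to 8 weeks was measured on 9 Affymetrix arrays, with 3 groups of 3. Control skin was labelled healthy, with no treatment named for it. The others had allergic contact dermatitis, a T cell driven eczema, after oxazolone (a small reactive chemical) or urushiol (the irritant sap oil of poison ivy and its relatives). Each allergen was painted at 2.0% on the shaved abdomen under ketamine and xylazine and, 5 days later, at 0.5% in 40 µl of acetone on the shaved nape, 5 times up to day 8. Skin was collected 4 hours after the final painting. How control mice were handled was not stated, so shaving, acetone and anaesthesia cannot be told apart from the allergen in any comparison with control. The labels call the replicates biological, and no label says whether animals were pooled.

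Oxidative phosphorylation turns the energy of food-derived electrons into ATP. Complex I (NADH dehydrogenase) and complex II (succinate dehydrogenase, which is also an enzyme of the citric acid cycle) pass electrons to ubiquinone, complex III passes them to cytochrome c and complex IV (cytochrome c oxidase) to oxygen, while complexes I, III and IV pump protons that complex V, the ATP synthase, uses to make ATP. Most subunits are the same in every cell, but complex IV has subunits with a form made in skeletal and heart muscle, Cox6a2, Cox7a1 and Cox8b in the mouse, and a form made in nearly all tissues, Cox6a1, Cox7a2 and Cox8a. Cox7a1 and Cox8b are also made in brown fat. Neck skin holds keratinocytes, which rely largely on glycolysis, and, beneath the dermis, fat and a sheet of striated muscle.

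The values are log2 expression values, which ran from 2.2 to 19.93, with array medians over all clusters between 5.53 and 5.64. No source used here gives the step that carried values past a scanner's range, and a log2 difference may not equal the log2 ratio of RNA amounts. Control array 3 stood apart from control arrays 1 and 2. It lay below both of them for 86 of the 96 members, against 28.2% of all genes, and inside the range of the 6 challenged arrays for 63. On this array the mean of 19 skeletal muscle genes, relative to the control mean, was -1.63, with control arrays 1 and 2 at 0.82 and 0.81. The means of 17 hair follicle genes (3.58, against -1.84 and -1.73) and of 8 cell division genes (1.24, against -0.47 and -0.77) were higher on it than on the other control arrays. On the 6 challenged arrays these means were also above those of control arrays 1 and 2, at 2.61 to 5.79 and at 1.36 to 1.64. All comparisons with control thus hold this difference too. Of 8 keratinocyte genes 5 rose after each allergen, and of 8 neutrophil genes 6. The part of these cells in the results was not tested, and counts of members below are given with and without this array.

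Members were lower in challenged skin than in control skin with few exceptions. Differences were tested with limma, a linear model with a pooled spread, over all 30142 genes, and a gene is called when its Benjamini-Hochberg adjusted p is under 0.05. After oxazolone 16 of the 96 members (16.7%) fell and 0 rose, where 6.92% of all genes fell, 9.63% rose and 16.6% were called in either direction. The share of members called in either direction was thus near that of all genes, and their direction was not. The 3 oxazolone arrays all lay below the 3 control arrays for 36 members (37.5%, against 11.5% of all genes), and the difference was below 0 for 85 (88.5%, against 34.7%). The oxazolone arrays all lay above the controls for 2 members (2.08%, against 21.3%), Cox6a1 and Cox8a. At an unadjusted p under 0.05 in limma 47 members were lower (49.0%, against 12.5%). The median difference over members was -0.40, and over all genes 0.06.

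After urushiol 11 members (11.5%) fell and 1 rose, where 6.43% of all genes fell, 9.96% rose and 16.4% were called. All urushiol arrays lay below all control arrays for 24 members (25%, against 11.8% of all genes), and 84 (87.5%, against 36.6%) had a difference below 0, with a median of -0.36 against 0.04 over all genes. The arrays lay all above the controls for Cox6a1 alone (1.04%, against 21.1%), and 39 members were lower at an unadjusted p under 0.05 (40.6%, against 12.0%). Both comparisons use the same 3 control arrays, so their likeness is in part that of the shared controls. Without control array 3 the counts were 56 lower and 3 higher after oxazolone, and 56 lower and 2 higher after urushiol, and all 16 and all 12 calls were kept. All genes fell more often then too, 10.8% and 10.2% of them. Leaving out another array lowered the counts: 3 and 1 members fell without control array 1, 2 and 1 without control array 2, 3 and 2 without any of the oxazolone arrays, and 8, 5 and 3 after oxazolone and 1 after urushiol without urushiol arrays 1, 2 and 3 in turn. In these fits 3.23% to 5.99% of all genes fell after oxazolone and 2.86% to 4.81% after urushiol. The members' share was above that of all genes without urushiol array 1 after oxazolone (8 of 96, against 5.99%), about equal to it without urushiol array 2 (5 of 96, against 5.18%) and below it in every other such fit, in both comparisons. In whole tissue, fewer cells of a type and less RNA per cell cannot be told apart.

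**Figure D1:**
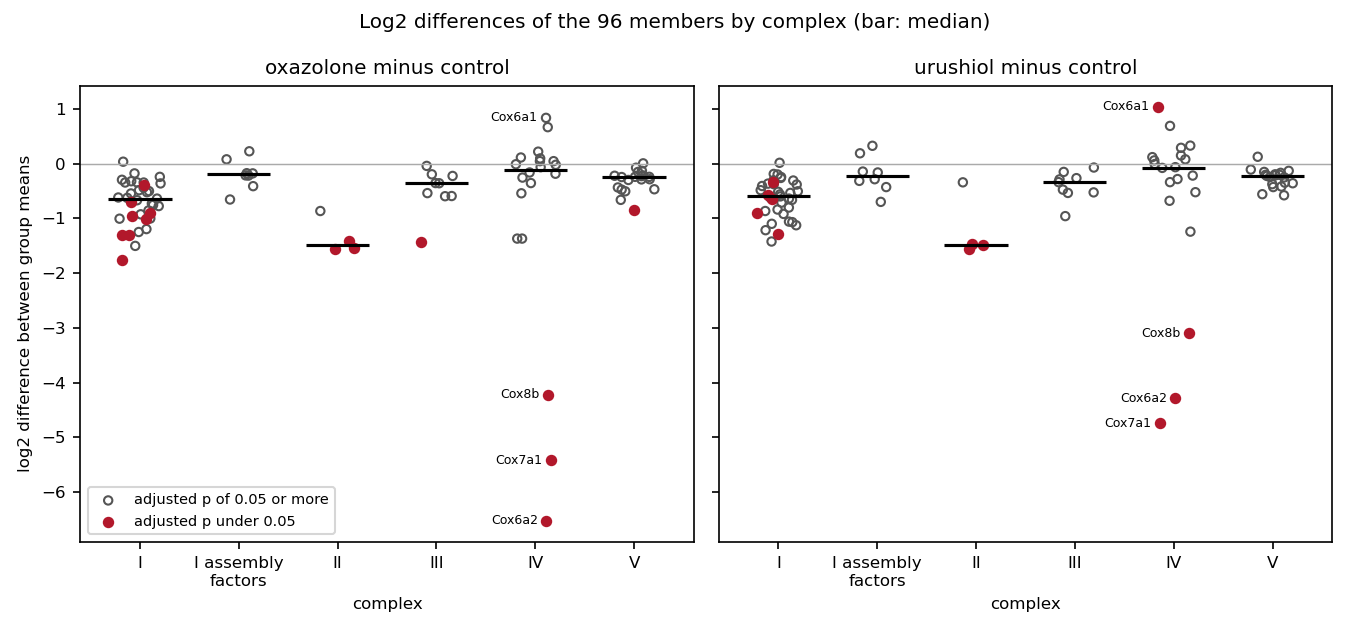
Log2 difference between group means for each of the 96 members (points), by complex, for oxazolone minus control (left) and urushiol minus control (right); filled points have an adjusted p under 0.05, and bars are medians. Cox6a2, Cox7a1 and Cox8b lie between -6.52 and -3.10 in both panels, below every other member, and complex II has the lowest median (-1.48 in both).

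The largest falls were those of the muscle isoforms of complex IV, each the counterpart of a form made in most tissues. Cox6a2, the muscle form of a small subunit that regulates the enzyme, stood at 13.64, 13.69 and 11.15 in control skin, at 6.73, 5.89 and 6.29 after oxazolone and at 8.71, 8.26 and 8.66 after urushiol. Its groups did not overlap with control, control array 3 being the lowest of the controls yet above all challenged arrays, and the oxazolone arrays were below the urushiol arrays. The difference was -6.52 ± 0.66 (SE; adjusted p = 0.0021, limma) after oxazolone and -4.28 ± 0.66 (adjusted p = 0.00791) after urushiol, and both calls held whichever array was left out. No other member kept its call in both comparisons through every left-out array.

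Cox7a1, the muscle form of a subunit at the enzyme's dimer interface, stood at 14.11, 13.20 and 9.95 in control skin, at 7.10, 7.01 and 6.90 after oxazolone and at 8.05, 7.25 and 7.75 after urushiol. Again control array 3 was the lowest control and still above each challenged array. Cox7a1 fell by 5.42 ± 0.96 (adjusted p = 0.0131) after oxazolone, a call lost without control array 2 (adjusted p = 0.0516), and by 4.74 ± 0.96 (adjusted p = 0.0195) after urushiol, a call lost without control array 1 or 2 or any urushiol array (adjusted p up to 0.0714). Cox8b, the muscle form of the smallest subunit, stood at 9.67, 8.98 and 6.54 in control skin, at 3.88, 4.44 and 4.22 after oxazolone and at 5.42, 5.26 and 5.21 after urushiol. All challenged arrays were below the array medians, and no group overlapped with control. The table holds no detection call, so Cox8b is not shown to be above background in challenged skin and the sizes below may understate its fall. Cox8b fell by 4.22 ± 0.72 (adjusted p = 0.0117) after oxazolone, whichever array was left out, and differed by -3.10 ± 0.72 (adjusted p = 0.0305) after urushiol, a call kept without control array 3 and lost without each of the other 8 arrays (adjusted p up to 0.102).

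The ubiquitous counterparts did not fall. Cox6a1 stood at 13.25, 13.00 and 13.94 in control skin, at 14.16, 14.17 and 14.36 after oxazolone and at 14.50, 14.19 and 14.61 after urushiol. Every challenged array was above every control array, with control array 3 the highest of the controls. Cox6a1 was the 1 member that rose, by 1.04 ± 0.24 (adjusted p = 0.0288) after urushiol, and the call was kept only without control array 3 or urushiol array 2 and lost without each of the other 7 arrays (adjusted p up to 0.0939). After oxazolone its difference was 0.83 ± 0.24 (adjusted p = 0.0535).

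Cox8a stood at 11.21, 11.14 and 11.85 in control skin, at 12.01, 12.16 and 12.02 after oxazolone and at 12.21, 11.71 and 12.34 after urushiol. The oxazolone arrays lay above the controls, while urushiol array 2 lay below control array 3. Its differences were 0.66 (adjusted p = 0.0867) and 0.69 (adjusted p = 0.0826), and both passed without control array 3. Cox7a2 stood at 11.91, 11.58 and 11.26 in control skin, at 11.55, 11.85 and 11.68 after oxazolone and at 12.11, 11.18 and 11.69 after urushiol. Its groups overlapped throughout, with differences of 0.11 (adjusted p = 0.796) and 0.08 (adjusted p = 0.889).

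**Figure D2:**
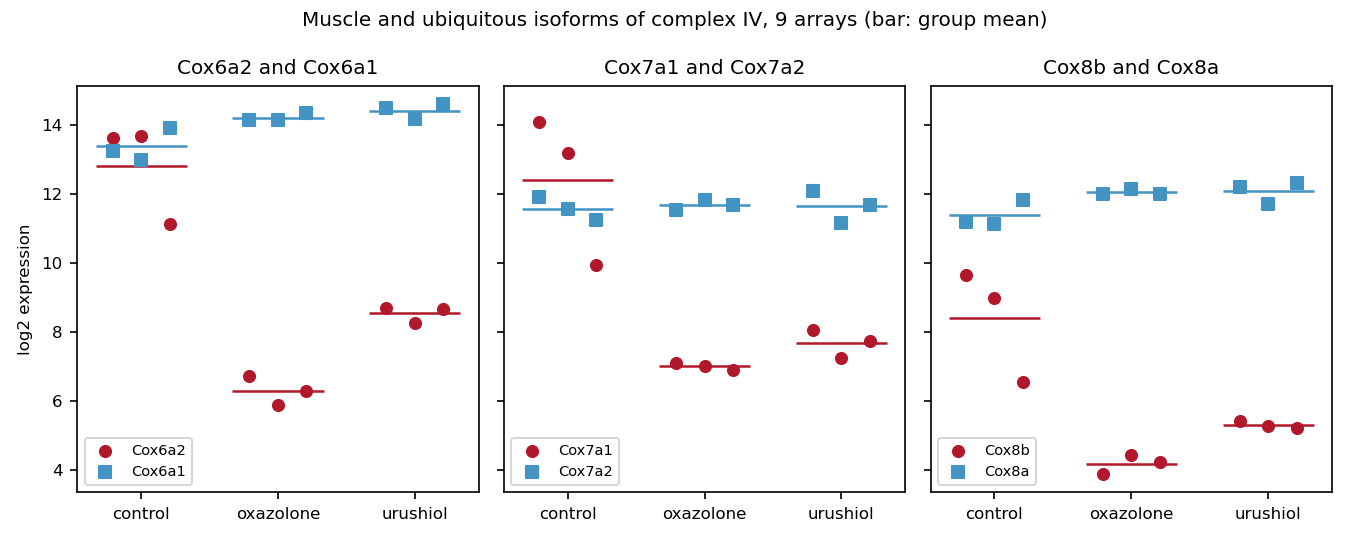
Log2 expression of the muscle form (circles) and the ubiquitous form (squares) of 3 complex IV subunits on each of the 9 arrays, with bars at group means. The muscle forms differ from control by -6.52 to -3.10 log2 units in challenged skin, control array 3 lying between the groups, while the ubiquitous forms move by 0.08 to 1.04; levels of different probes cannot be set against each other.

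The change of the difference between the forms was taken within each array. Cox6a2 minus Cox6a1 was 0.39, 0.69 and -2.79 in control skin, -7.43, -8.28 and -8.07 after oxazolone and -5.79, -5.93 and -5.95 after urushiol. Between the group means it changed by -7.36 ± 1.14 (SE) after oxazolone and by -5.32 ± 1.11 after urushiol. For Cox7a1 minus Cox7a2 the changes were -5.53 ± 1.09 and -4.81 ± 1.09, and for Cox8b minus Cox8a -4.88 ± 1.17 and -3.79 ± 1.18. The last pair shares the limit given for Cox8b. In each of the 3 pairs no challenged array overlapped with a control array. Of 12 exact permutation tests (two-sided), the 9 of 3 arrays against 3 all gave p = 0.1, the smallest they can give. With both allergens together, 6 arrays against 3, the changes were -6.34, -5.17 and -4.33. Each had an exact permutation p = 0.0238, the smallest possible, and 0.0952 after Benjamini-Hochberg adjustment over the 12 tests. Since every test gave its smallest p, no data could give lower adjusted values in this family. None passed and none could have passed with these group sizes, so nothing can be drawn from that failure. Without 1 control array, 6 against 2, the exact p was 0.0714.

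Other genes of striated muscle moved with these isoforms. All 19 listed skeletal muscle genes fell after oxazolone (median difference -8.73) and 18 of 19 after urushiol (median -5.34), myoglobin (Mb, -1.70, adjusted p = 0.0521) being the exception. Without control array 3 all 19 fell in both comparisons, and without control array 1 or 2 15 fell after urushiol. The mean of the list, relative to the control mean, was -1.63 to 0.82 on the control arrays, -9.07 to -7.52 on the oxazolone arrays and -5.63 to -4.92 on the urushiol arrays. Ckmt2, the mitochondrial creatine kinase of striated muscle, differed by -7.05 and -5.58, and Fabp3, a muscle fatty acid carrier, by -4.65 and -3.49, and all 4 were called. The calls of Fabp3 were lost for 4 and 8 of the 9 left-out arrays (adjusted p up to 0.0608 and 0.13) and that of Ckmt2 after urushiol for 3 (adjusted p up to 0.0577). Of 9 genes listed for slow fibres, Myh7, Myl2, Myl3, Tnnc1, Tnni1 and Tnnt1 lay between 4.60 and 5.96 on all arrays, near the array medians, with differences of -0.12 to 0.14, and 0 of these 6 passed. Atp2a2, the calcium pump of slow muscle and of many non-muscle cells, was the 1 gene of this list that rose, by 1.41 (adjusted p = 0.0192, lost for 4 of 9 left-out arrays) and by 1.83 (adjusted p = 0.00788), and Casq2, a calcium-binding protein, differed by -0.57 and -0.52 and did not pass. Casq2 and Tnnt1 fell in both comparisons without control array 3. Myh2, the myosin of fast oxidative fibres, stood at 15.68, 15.93 and 10.04 in control skin, fell by 7.60 after oxazolone (adjusted p = 0.0166; up to 0.0587 without 1 array, lost for 5 of 9) and had a difference of -5.21 after urushiol (adjusted p = 0.0514). The part of muscle in the members' results was not tested.

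Markers of brown fat, the other tissue that makes Cox7a1 and Cox8b, did not all follow. Of 8 genes listed for it 2 fell after oxazolone, Cox7a1 and Cox8b themselves, and 3 after urushiol, these and Zic1. Of all genes 6.92% and 6.43% fell. Without control array 3 Cox7a1 and Cox8b fell in both comparisons, and Elovl3 rose after oxazolone. Ucp1, its uncoupling protein, lay between 3.92 and 4.45 on all 9 arrays, under the array medians, and Prdm16, a regulator of brown fat identity, between 5.40 and 5.52. Their differences were 0.19 and 0.01 after oxazolone and 0.04 and 0.00 after urushiol, and none passed. The 2 highest genes of the list were Elovl3 (3.14 after oxazolone and 1.85 after urushiol) and Dio2 (0.47 and 0.35). Neither passed in the fit of 9 arrays. Of the 8 genes 3 had a difference below 0 after oxazolone and 4 after urushiol. Genes of adipocytes at large did fall, 8 of 10 after oxazolone (median -1.83) and 7 of 10 after urushiol (median -1.74), and 7 in each without control array 3. The mean of that list was -0.37, 0.52 and -0.14 on control arrays 1, 2 and 3, so that control array 3 did not stand apart in it, and -1.99 to -1.22 on the challenged arrays.

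Because the members of each pair moved apart, the promoters of Cox6a1 and of both members of the other pairs are shown (that of Cox6a2 is not shown), from 200 bases before to 10 bases after the transcription start in the RefSeq annotation of GRCm38.p6, 5′ to 3′ on the gene's strand. Capitals mark matches, on either strand, to motifs known from promoters of respiratory genes (the palindromic NRF1 motif, CCGGAAGT for the ETS family that includes GABPA, AAGATGGC for YY1, AAGGTCA for oestrogen-related receptors) or of muscle genes (the E-box CAGCTG).
Cox6a1 promoter, chr5:115348949-115349158 (- strand): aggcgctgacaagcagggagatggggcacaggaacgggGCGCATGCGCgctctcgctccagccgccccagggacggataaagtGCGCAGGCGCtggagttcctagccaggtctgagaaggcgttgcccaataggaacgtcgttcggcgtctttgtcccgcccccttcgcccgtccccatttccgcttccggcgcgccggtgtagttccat
Cox7a1 promoter, chr7:30183971-30184180 (+ strand): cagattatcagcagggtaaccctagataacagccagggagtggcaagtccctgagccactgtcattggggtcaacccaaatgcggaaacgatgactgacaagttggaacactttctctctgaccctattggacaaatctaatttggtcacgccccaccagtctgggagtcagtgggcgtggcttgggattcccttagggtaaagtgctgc
Cox7a2 promoter, chr9:79759844-79760053 (- strand): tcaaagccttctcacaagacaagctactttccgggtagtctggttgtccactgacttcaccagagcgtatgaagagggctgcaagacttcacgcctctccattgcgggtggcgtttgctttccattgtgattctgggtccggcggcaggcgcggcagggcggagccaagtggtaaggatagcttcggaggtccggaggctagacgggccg
Cox8b promoter, chr7:140900437-140900646 (- strand): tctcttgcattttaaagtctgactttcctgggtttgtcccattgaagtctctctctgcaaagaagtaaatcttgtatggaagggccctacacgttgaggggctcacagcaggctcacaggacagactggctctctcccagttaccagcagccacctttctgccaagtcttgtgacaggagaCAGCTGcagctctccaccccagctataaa
Cox8a promoter, chr19:7217607-7217816 (- strand): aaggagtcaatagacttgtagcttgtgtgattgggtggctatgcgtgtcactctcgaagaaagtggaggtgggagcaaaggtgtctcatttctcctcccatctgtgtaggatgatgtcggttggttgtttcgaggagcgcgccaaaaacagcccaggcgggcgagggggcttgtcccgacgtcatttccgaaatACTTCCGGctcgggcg
The ubiquitous Cox6a1 holds NRF1 matches starting 162 and 117 bases before the start, and Cox8a an ETS match starting 6 bases before it. The muscle form Cox8b holds an E-box match starting 19 bases before the start, and no listed motif was matched in the windows of Cox7a1 and Cox7a2. Over 300-base windows (250 before to 50 after the start), 74 members had a promoter in the table. NRF1 letters were found in 16 of them (21.6%, against 5.19% of 27025 promoters), YY1 letters in 11 (14.9%, against 3.19%), oestrogen-related receptor letters in 7 (9.46%, against 5.38%), ETS letters in 5 (6.76%, against 4.31%) and the E-box in 6 (8.11%, against 18.3%). These are matches of letters, not measured sites.

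Complex II had the lowest median difference of the complexes. It has 4 subunits: the flavoprotein Sdha that oxidises succinate, the iron-sulphur protein Sdhb, and the membrane anchors Sdhc and Sdhd. Sdha, Sdhb and Sdhc fell after both allergens, and the median over the 4 was -1.48 in each comparison. Sdha stood at 12.19, 12.17 and 10.65 in control skin, at 10.09, 10.24 and 9.99 after oxazolone and at 10.18, 10.10 and 10.30 after urushiol, and Sdhc at 10.82, 10.96 and 9.53, at 8.83, 8.78 and 9.07, and at 8.63, 8.91 and 9.10. Sdhb stood at 11.67, 11.45 and 10.04, at 9.52, 9.76 and 9.62, and at 9.53, 9.43 and 9.76 in the same order. In all 3 the groups did not overlap with control, and control array 3 lay closer to the challenged arrays than to the other controls. Sdhd departed from them: it stood at 12.36, 12.24 and 10.53 in control skin, at 10.91, 10.77 and 10.85 after oxazolone and at 11.60, 11.00 and 11.50 after urushiol. Control array 3 was below every challenged array for this gene, so the groups overlapped.

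The difference of Sdha was -1.56 ± 0.39 (adjusted p = 0.0364) after oxazolone and -1.48 ± 0.39 (adjusted p = 0.0436) after urushiol, that of Sdhb -1.42 (adjusted p = 0.0498) and -1.48 (adjusted p = 0.0443), and that of Sdhc -1.54 (adjusted p = 0.031) and -1.56 (adjusted p = 0.0304). Sdhd differed by -0.87 (adjusted p = 0.235) and -0.34 (adjusted p = 0.675). All 4 passed in both comparisons without control array 3. Without any other single array none of the 6 calls was kept, save that of Sdhc after oxazolone without urushiol array 1; the adjusted p of Sdhb after oxazolone reached 0.154.

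Complex I, the largest complex, was lower in nearly all of its measured genes. The difference was below 0 for 35 of 36 after each allergen, with medians of -0.66 and -0.58. After oxazolone 8 fell: Ndufs7, a core subunit that carries an iron-sulphur cluster, and the accessory subunits Ndufa6, Ndufa10, Ndufa13, Ndufb3, Ndufb9, Ndufb10 and Ndufv3. After urushiol 5 fell: Ndufa6, Ndufa13, Ndufb3, Ndufb10 and Ndufs5. All 3 oxazolone arrays were below all control arrays for 21 of the 36, and all urushiol arrays for 13. Of all genes 6.92% fell after oxazolone and 6.43% after urushiol. Their challenged arrays all lay below the controls for 11.5% and 11.8%, and 34.7% and 36.6% had a difference below 0.

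Ndufs7 had the lowest difference of complex I in both comparisons. It stood at 11.25, 11.16 and 9.67 in control skin, at 8.79, 8.92 and 9.07 after oxazolone and at 9.08, 9.23 and 9.50 after urushiol. Its groups did not overlap with control, and it differed by -1.77 ± 0.40 (adjusted p = 0.028) after oxazolone and by -1.42 ± 0.40 (adjusted p = 0.0521) after urushiol. Ndufa13, an accessory subunit also known as GRIM-19, stood at 9.71, 9.44 and 8.32 in control skin, at 7.81, 7.85 and 7.88 after oxazolone and at 8.11, 7.55 and 7.95 after urushiol. Ndufa13 fell by 1.31 ± 0.34 (adjusted p = 0.0424) and by 1.29 ± 0.34 (adjusted p = 0.0448), again with no overlap. Ndufa8 differed by -1.5 (adjusted p = 0.0575) and -1.22 (adjusted p = 0.104), and did not pass.

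Subunits with small but even differences also passed. Ndufb10 stood at 8.76, 8.54 and 8.38 in control skin, at 8.24, 8.10 and 8.19 after oxazolone and at 8.24, 8.18 and 8.24 after urushiol. Control array 3 was the lowest control and above every challenged array. Ndufb10 fell by 0.38 ± 0.09 (adjusted p = 0.0344) and by 0.34 ± 0.09 (adjusted p = 0.0491). Ndufs5 fell by 0.57 ± 0.14 (adjusted p = 0.0359) after urushiol and differed by -0.50 (adjusted p = 0.0511) after oxazolone. At the other end of complex I, Ndufa7 lay between 7.85 and 7.98 on all 9 arrays, with differences of 0.03 and 0.01, and Ndufs6 (-0.18 and -0.20) and Ndufb2 (-0.24 and -0.19) followed. The core subunits Ndufs1, Ndufs3, Ndufs7, Ndufs8, Ndufv1 and Ndufv2 had medians of -0.75 and -0.69, and the 30 others -0.63 and -0.55.

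The calls in complex I turned on single arrays. Without control array 3, 29 of 36 fell after oxazolone and 30 after urushiol, all 8 and all 5 calls among them. In those fits 10.8% and 10.2% of all genes fell. Without control array 1 or 2, any oxazolone array or urushiol array 3, 0 of 36 passed after oxazolone, and without urushiol arrays 1 and 2 in turn 3 (Ndufa10, Ndufb3 and Ndufs7) and 2 (Ndufa10 and Ndufb3). After urushiol 0 of 36 passed without any array but control array 3. Ndufa11b (annotated as a transcribed pseudogene), Ndufb4b and Ndufb4c are near-copies of other complex I genes, so reads of their probes may be shared with those genes. Their values (-0.76, -1.20 and -0.86 after oxazolone, none called) are uncertain.

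Of the 8 complex I assembly factors Ndufaf1 to Ndufaf8, which help build the complex and leave it, 0 passed in either comparison. Of all genes 16.6% and 16.4% passed. The medians of the 8 were -0.20 and -0.23. Ndufaf1 was the lowest, at 8.99, 8.61 and 8.02 in control skin, 8.00, 7.86 and 7.79 after oxazolone and 8.00, 7.71 and 7.81 after urushiol. Its challenged arrays were all below the controls, with differences of -0.66 (adjusted p = 0.0895) and -0.70 (adjusted p = 0.0791). Ndufaf2 (0.22 and 0.19) and Ndufaf4 (0.08 and 0.32) were above 0. With control array 3 left out Ndufaf1, Ndufaf5, Ndufaf6 and Ndufaf7 fell in both comparisons, and Ndufaf2 rose after oxazolone.

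In complex III all 9 genes had a difference below 0 in both comparisons (of all genes 34.7% and 36.6%). After oxazolone 1 of 9 fell, where 6.92% of all genes fell, and after urushiol 0 of 9, where 6.43% fell. Uqcrc1, a core protein that faces the matrix, stood at 12.17, 12.28 and 10.72 in control skin, at 10.37, 10.06 and 10.43 after oxazolone and at 10.69, 10.69 and 10.91 after urushiol. The oxazolone arrays were all below the controls, while urushiol array 3 was above control array 3. Uqcrc1 fell by 1.44 ± 0.39 (adjusted p = 0.0474) after oxazolone and differed by -0.96 ± 0.39 (adjusted p = 0.14) after urushiol. Its partner Uqcrc2 (-0.60 and -0.54) and the small subunit Uqcr10 (-0.59 and -0.53) came next, and Uqcr11 (-0.20 and -0.15) and the pseudogene Uqcrh-ps1 (-0.04 and -0.07) were nearest to 0. The medians were -0.36 and -0.34. Without control array 3 Uqcrc1, Uqcrc2, Uqcr10 and Uqcrfs1, the Rieske iron-sulphur protein, passed in both comparisons, and without each other array 0 of 9 passed.

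Complex IV without its muscle isoforms had the median differences nearest to 0. Of these 17 genes 0 fell in either comparison, where 6.92% and 6.43% of all genes fell. Below 0 were 10 after oxazolone and 9 after urushiol (of all genes 34.7% and 36.6%), and the medians were -0.02 and -0.01. These medians include the tissue-restricted Cox4i2, Cox6b2, Cox7b2 and Cox8c. Cox7b2 lay below the array medians (5.53 to 5.64) on all arrays, at 4.10 to 4.59. Cox4i2, Cox6b2 and Cox8c lay above them, at 5.86 to 6.89. These tissue-restricted genes had differences near 0 and so draw the median towards 0. Cox5a, a nuclear-encoded subunit on the matrix side, stood at 11.65, 11.00 and 9.72 in control skin, at 9.23, 9.45 and 9.58 after oxazolone and at 9.63, 9.33 and 9.68 after urushiol. It was lower on every challenged array than on every control array, with differences of -1.37 ± 0.44 (adjusted p = 0.0742) and -1.24 ± 0.44 (adjusted p = 0.0992). Cox5b differed by -0.54 and -0.52, Cox4i1 by -0.36 and -0.34 and Cox6c by -0.26 and -0.28, and none passed. Cox7b (-0.07 in both), Cox7c (-0.02 and -0.01) and Cox6b1 (0.22 and 0.33) were close to 0 or above it. With control array 3 left out Cox5a, Cox5b, Cox4i1 and Cox6c fell and Cox6a1 and Cox8a rose in both comparisons.

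Other relatives in complex IV were low or variable. Cox4i2, the lung and hypoxia form, lay between 6.43 and 6.89 on the 9 arrays, and the testis forms Cox6b2, Cox7b2 and Cox8c lay between 4.10 and 6.21, with differences of -0.08 to 0.15 over these 4 genes. Ndufa4, first assigned to complex I and now to complex IV, stood at 14.72, 14.63 and 13.71 in control skin, at 14.02, 14.17 and 14.38 after oxazolone and at 15.17, 13.98 and 14.77 after urushiol. Its groups overlapped, control array 3 being the lowest of all 9, and its differences were -0.16 (adjusted p = 0.789) and 0.29 (adjusted p = 0.654). Ndufa4l2, its relative that is induced by HIF1 in low oxygen, stood at 8.25, 8.98 and 8.92, at 8.13, 5.79 and 8.12, and at 8.45, 7.74 and 7.92. Oxazolone array 2 was lower than the other 8 arrays, and the differences were -1.37 ± 0.63 (adjusted p = 0.173) and -0.68 ± 0.63 (adjusted p = 0.517). Cox7a2l, a relative of Cox7a2 known as a factor for supercomplexes of complexes III and IV, differed by -0.19 and -0.22 and did not pass. Its function in these mice was not measured.

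In complex V 18 of 19 genes were below 0 in both comparisons (of all genes 34.7% and 36.6%), with medians of -0.25 and -0.23. After oxazolone 1 of 19 fell, where 6.92% of all genes fell, and after urushiol 0 of 19, where 6.43% fell. Atp5g1, Atp5g2 and Atp5g3 encode an identical mature c subunit, which forms the rotating ring. Atp5g1 stood at 10.37, 10.32 and 9.61 in control skin, at 9.32, 9.20 and 9.23 after oxazolone and at 9.87, 9.61 and 9.69 after urushiol. The oxazolone arrays were all below the controls, and the urushiol arrays lay at or above control array 3 and below the other controls. Atp5g1 fell by 0.85 ± 0.20 (adjusted p = 0.0297) after oxazolone and differed by -0.38 (adjusted p = 0.239) after urushiol. Atp5g3 differed by -0.47 (adjusted p = 0.108) and -0.43 (adjusted p = 0.142), and Atp5g2 by -0.24 (adjusted p = 0.481) and -0.35 (adjusted p = 0.334), with overlapping groups.

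The catalytic subunits of complex V, Atp5a1 (-0.66 and -0.56) and Atp5b (-0.48 and -0.42), did not pass in the fit of 9 arrays, nor did Atp5e (-0.51 and -0.58). Atp5h, of the stator stalk, was nearest to 0 (0.00 and 0.12), and Atp5j2 (-0.08 and -0.13) and Atp5l-ps1 (-0.13 and -0.11) followed. Atp5c1-ps, Atp5l-ps1 and Atp5l2 are copies of other complex V genes, so their values are uncertain. Leaving out control array 3, 8 of 19 fell after oxazolone and 7 after urushiol, and Atp5g1, Atp5a1 and Atp5b were among them in both. In those fits 10.8% and 10.2% of all genes fell. The call of Atp5g1 was kept without control array 3 or urushiol array 1 and lost without each of the other 7 arrays (adjusted p up to 0.0977).

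**Figure D3:**
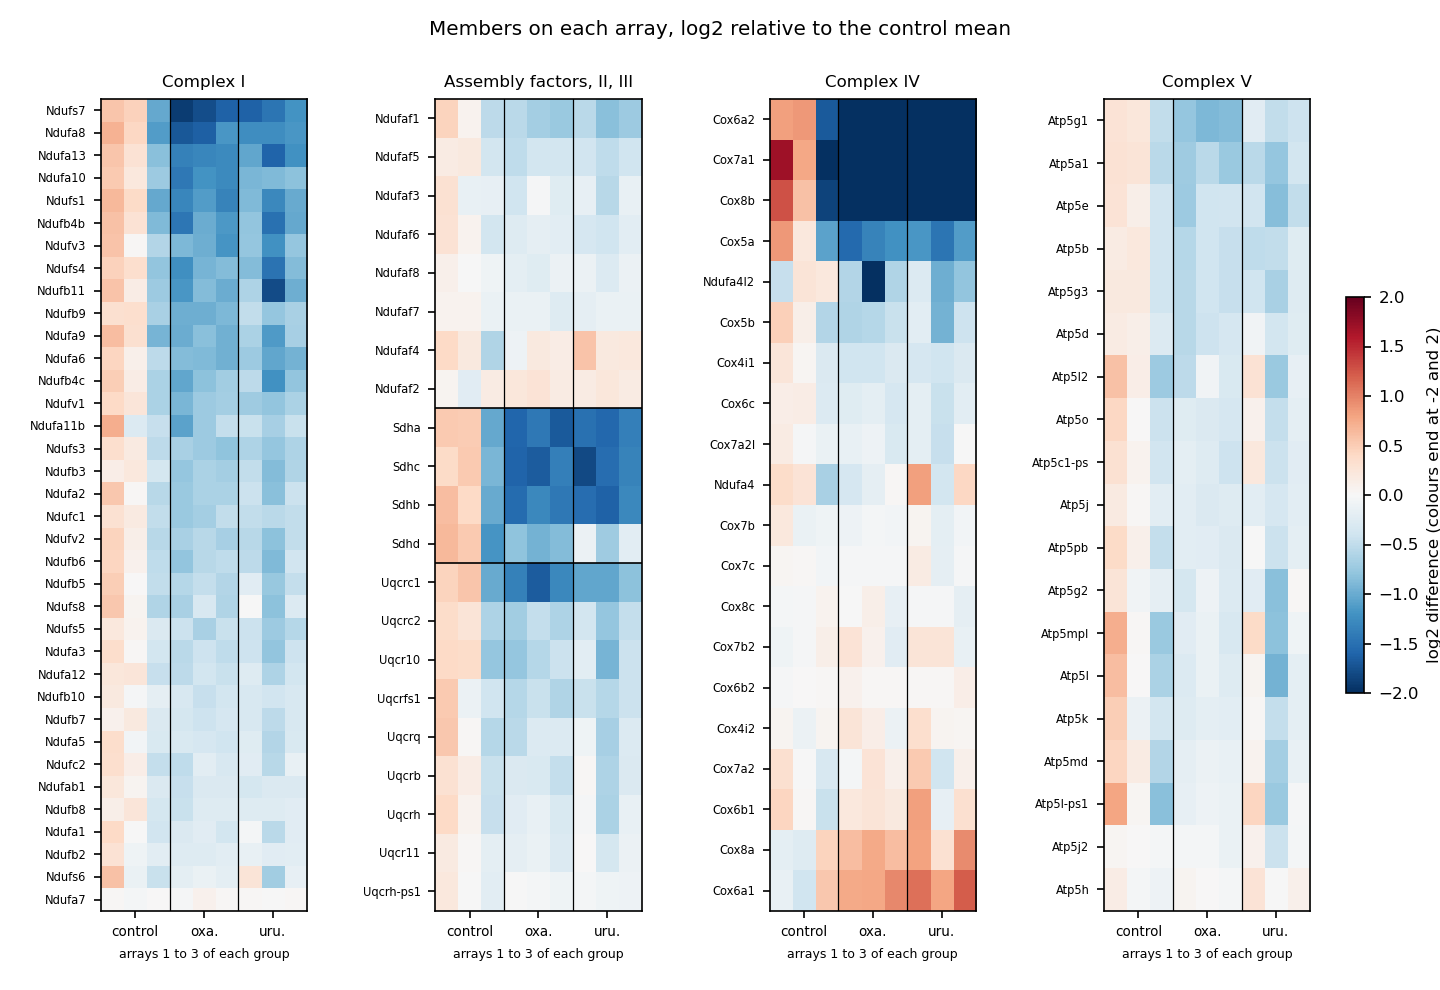
Each of the 96 members (lines, ordered within a complex by the oxazolone difference) on the 9 arrays, 3 of each group, as log2 difference from the member's control mean; blue is lower and red higher, and colours end at -2 and 2. Control array 3 is bluer than control arrays 1 and 2 for most members, and Cox6a1 and Cox8a at the foot of complex IV run the other way.

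The complexes differed in how far they moved on each array. The mean over complex II, relative to the control mean, was 0.54, 0.49 and -1.03 on control arrays 1, 2 and 3, -1.38 to -1.33 on the oxazolone arrays and -1.36 to -1.05 on the urushiol arrays. For complex I it was 0.41, 0.14 and -0.55, then -0.79 to -0.68 and -0.85 to -0.51. For complex V it was 0.35, 0.08 and -0.43, then -0.35 to -0.26 and -0.58 to -0.04. In complexes III and V control array 3 thus lay at or below most challenged arrays (complex III -0.52, against -0.62 to -0.24), and in complex I it lay within the range of the urushiol arrays. Every challenged array was below both control arrays 1 and 2 for 67 of the 96 members, where 14.6% of all genes showed this.

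**Figure D4:**
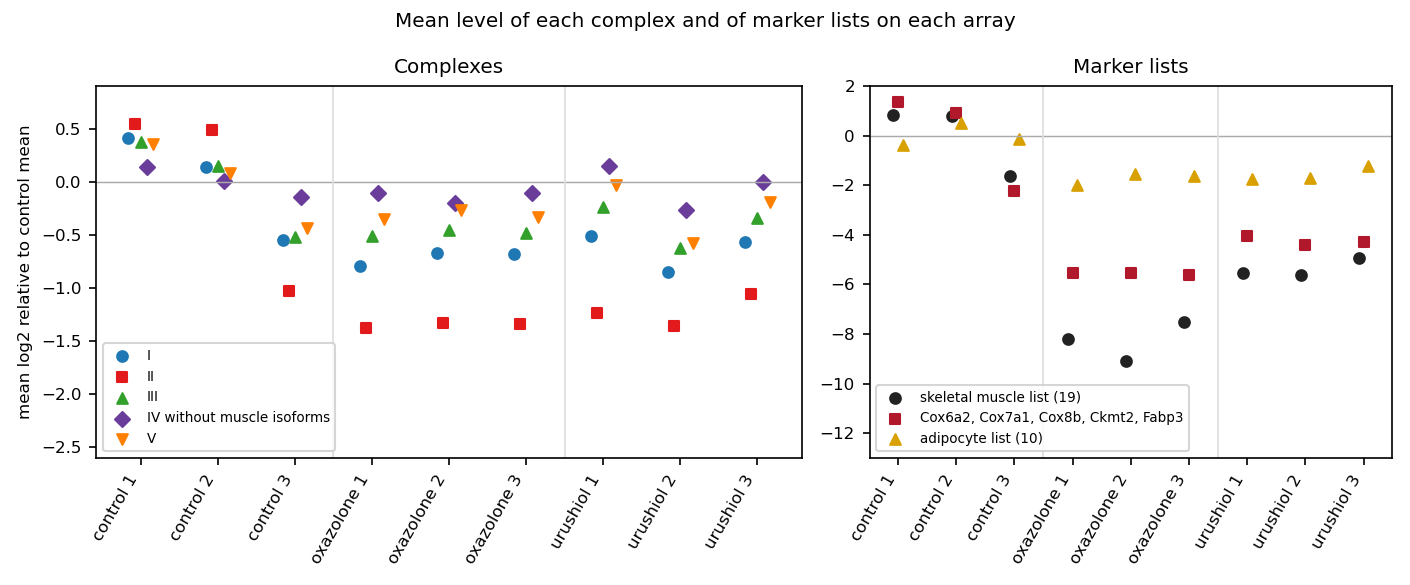
Mean log2 level relative to the control mean on each of the 9 arrays, for each complex (left; complex IV without Cox6a2, Cox7a1 and Cox8b) and for marker lists (right; with a wider axis). Control array 3 lies among the challenged arrays for complexes I, III and V, while for the skeletal muscle list it lies at -1.63, between the other controls (0.82 and 0.81) and the challenged arrays (-9.07 to -4.92).

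Between the allergens 0 of 96 members were called, and 5 of 30142 genes were (0.0166%). The median difference of urushiol minus oxazolone was 0.04 over members and -0.00 over all genes. At an unadjusted p under 0.05 in limma there were 2 members, Cox6a2 (2.24 ± 0.66, adjusted p = 0.555) and Atp5g1 (0.47 ± 0.20, adjusted p = 0.838), where 5.88% of all genes passed that bound. For 9 members (9.38%, against 5.35% of all genes) all urushiol arrays were above all oxazolone arrays: Cox6a2, Cox7a1, Cox8b, Ndufa10, Ndufb9, Ndufs7, Sdhd, Uqcrc1 and Atp5g1. For 0 members (against 4.39%) were they all below. The muscle list stood beside this with all 19 genes higher on every urushiol array than on every oxazolone array (median 2.86), of which 0 were called and 14 had an unadjusted p under 0.05.

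Genes that feed the respiratory chain were lower as well, from lists chosen with earlier results of these data known. In the citric acid cycle and pyruvate dehydrogenase list 7 of 16 genes fell after oxazolone and 6 after urushiol, 0 rose, and the medians were -1.23 and -1.06. Cs, citrate synthase, differed by -1.60 (adjusted p = 0.0198) and -1.47 (adjusted p = 0.0255), and Idh3b, a subunit of isocitrate dehydrogenase, by -1.68 (adjusted p = 0.024) and -1.53 (adjusted p = 0.0318). Without control array 3 all 16 fell in both comparisons, and without control array 1 or 2 none passed. Of all genes 6.92% and 6.43% fell in the fit of 9 arrays, and 10.8% and 10.2% without control array 3. In fatty acid oxidation 4 of 15 fell after oxazolone and 3 after urushiol (medians -0.59 and -0.50). The count was 11 in each without control array 3, and 1 (Acadm) without control array 1 or 2. Cpt1b, the muscle form of the enzyme that admits fatty acids to the mitochondrion, differed by -4.0 (adjusted p = 0.022) and -3.49 (adjusted p = 0.0331), calls lost for 5 and 8 of the 9 left-out arrays (adjusted p up to 0.075 and 0.103), while its liver form Cpt1a differed by -0.11 and -0.13 (not passed). Acadm, the medium-chain dehydrogenase, fell by 2.01 (adjusted p = 0.0078) and 1.91 (adjusted p = 0.00875), whichever array was left out.

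The carriers held another pair that moved apart. Of 9 carriers, porins and uncoupling proteins 4 fell and 1 rose after oxazolone, and 2 fell and 1 rose after urushiol. Of all genes 6.92% fell and 9.63% rose after oxazolone, and 6.43% fell and 9.96% rose after urushiol. Without control array 3, 6 of the 9 fell and 1 rose in each, where 10.8% and 10.2% of all genes fell. Slc25a4, the adenine nucleotide carrier of muscle and heart, stood at 15.34, 15.26 and 13.73 in control skin, at 12.22, 11.95 and 12.00 after oxazolone and at 12.60, 12.50 and 12.64 after urushiol. It differed by -2.72 (adjusted p = 0.00694) and -2.2 (adjusted p = 0.0134), the latter lost without control array 2 (adjusted p = 0.0502). Slc25a5, the carrier of dividing cells, stood at 14.83, 14.73 and 15.99, at 16.53, 16.91 and 16.61, and at 16.84, 16.50 and 16.94. Every challenged array was above every control, and it rose by 1.5 (adjusted p = 0.0259) and 1.58 (adjusted p = 0.0218), calls lost for 5 and 4 of the 9 left-out arrays (adjusted p up to 0.0853 and 0.0761), control arrays 1 and 2 among them.

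Of 18 regulators of mitochondrial formation 4 fell and 1 rose after each allergen. Of all genes 6.92% fell and 9.63% rose after oxazolone, and 6.43% fell and 9.96% rose after urushiol. Ppargc1a, the coactivator PGC-1 alpha, differed by -2.90 (adjusted p = 0.0266) and -2.77 (adjusted p = 0.0304), and Perm1, its target in muscle, by -2.59 (adjusted p = 0.0255) and -2.47 (adjusted p = 0.0295), and these calls were lost for 5 to 8 of the 9 left-out arrays, control arrays 1 and 2 among them (adjusted p up to 0.0974). Hif1a, the oxygen-regulated factor, rose by 2.42 (adjusted p = 0.000939) and 2.79 (adjusted p = 0.000564), whichever array was left out. Nrf1 (0.30 and 0.25), Gabpa (0.20 and 0.17), Yy1 (0.34 and 0.40) and Tfam (-0.08 and -0.13) did not pass. With control array 3 left out 7 of the 18 fell and 6 rose in each comparison, Nrf1, Gabpa and Yy1 among the 6. In those fits 10.8% and 10.2% of all genes fell. Among 16 HIF targets and glycolytic genes 2 rose and 2 fell after oxazolone and 4 rose and 3 fell after urushiol. These counts were 2 and 6, and 3 and 3, without control array 3. Slc2a1, a glucose transporter, rose by 3.04 and 3.93, and Pdk4, the kinase that shuts off pyruvate dehydrogenase, fell by 6.15 and 4.82, whichever array was left out.

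Other machinery of the mitochondrion moved less. In 31 further assembly factors and electron carriers 9 fell and 1 rose after oxazolone, and 8 fell and 0 rose after urushiol, with medians of -0.25 and -0.22. Of all genes 6.92% fell and 9.63% rose after oxazolone, and 6.43% fell and 9.96% rose after urushiol. Coq9, needed to make ubiquinone, differed by -1.40 (adjusted p = 0.031) and -1.36 (adjusted p = 0.0339), calls lost for 7 and 8 of the 9 left-out arrays (adjusted p up to 0.102 and 0.11), and Cox18, a factor that inserts a complex IV subunit, rose by 0.47 (adjusted p = 0.0292) after oxazolone, lost for 6 of 9 left-out arrays (adjusted p up to 0.0916), and differed by 0.21 after urushiol. Without control array 2, 0 and 2 of the 31 fell and 0 rose, and without control array 3, 14 fell and 2 rose, and 15 fell and 1 rose. Of all genes 3.23% and 2.95% fell without control array 2, and 10.8% and 10.2% without control array 3. Of 26 mitochondrial ribosome proteins 3 rose and 1 fell after oxazolone, and 4 rose and 2 fell after urushiol, with medians of 0.00 and 0.05. For so few genes these counts were near the shares of all genes given above. Without control array 1 or 2, 0 fell, and without control array 3, 5 and 4 fell and 3 rose in each. The calls of Mrpl37, which fell after both allergens, were lost for 7 and 8 of the 9 left-out arrays, that of Mrpl2, which fell after urushiol, for 8, and that of Mrps22, which rose after urushiol, for 6. Mrpl20 rose by 0.54 (adjusted p = 0.00613) and 0.53 (adjusted p = 0.00636), whichever array was left out. Of the 13 subunits encoded by the mitochondrial genome 5 had a cluster with 1 symbol, and 0 passed (ND2, ND3, ND6, COX1 and COX2, with differences of -0.48 to -0.06).

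**Figure D5:**
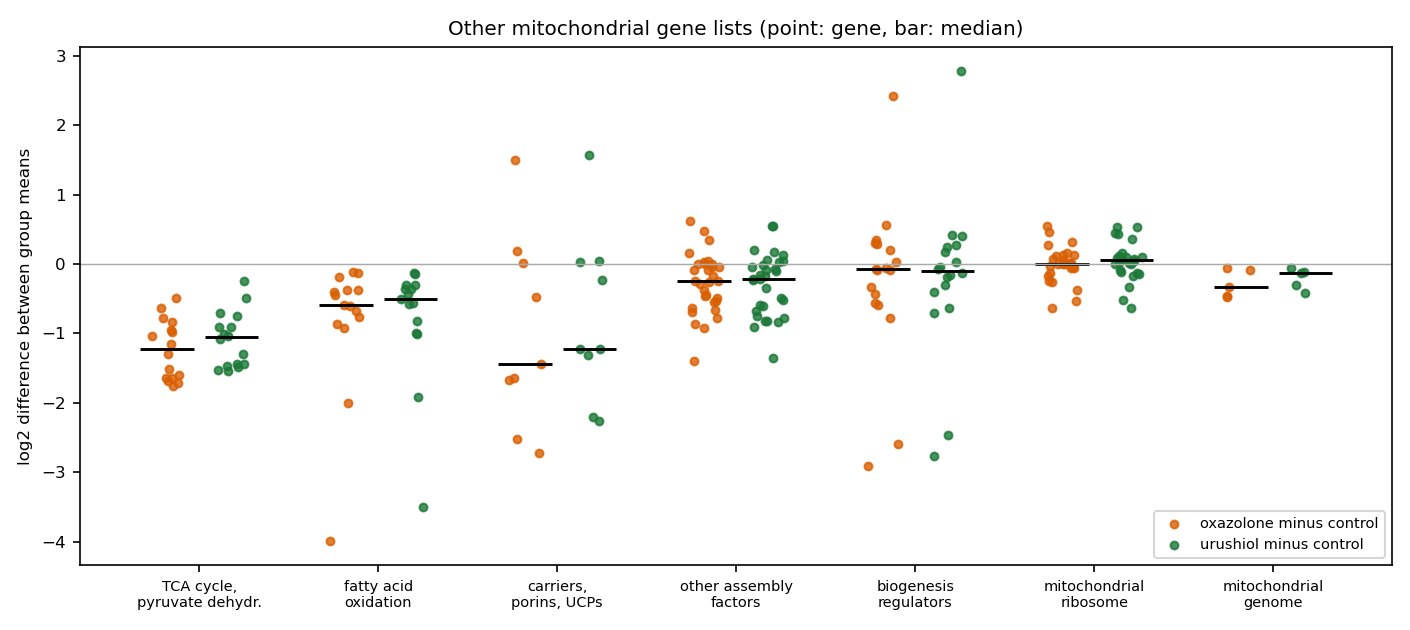
Log2 differences from control for genes of 7 other mitochondrial lists (points: genes; bars: medians), oxazolone in orange and urushiol in green. The citric acid cycle list lies wholly below 0 (medians -1.23 and -1.06), and the mitochondrial ribosome list is centred near 0 (0.00 and 0.05).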

How the data were processed

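The authors' deposited table holds log2 expression values for 72688 features of 9 Affymetrix arrays. Per the submitters' processing notes, RMA, Affymetrix Expression Console 1.4 and Transcriptome Analysis Console were used, their roles and order unstated. Of these features 6732 array controls were left out. Of 65956 transcript clusters 30604 had 1 gene symbol, 2146 several and 33206 none, and 827 symbols were updated through the gene ID to RefSeq (GRCm38.p6). The cluster with the highest mean stood for a gene, which gave 30142 genes. Genes that match the rule but had no cluster with 1 symbol were not analysed here.

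Groups were compared in 1 fit over the 9 arrays with limma 3.58.1 (lmFit and eBayes, R 4.3.3), two-sided, tested on simulated data, with Benjamini-Hochberg adjustment over all genes at 0.05. Precision is limited by the number of arrays (median standard error of a difference 0.113 over all genes). For most members it was larger, from 0.04 (Ndufa7) to 0.96 (Cox7a1). Members, lists and named genes were chosen with earlier results of these data known. The naming rule took the isoform pairs, complex II, tissue-restricted relatives, the 3 lowest and 2 highest members per complex and the 2 lowest and 2 highest genes per list. The other called members and the remaining complex I core subunits were named after their values were seen. So were Cox5a, Cox5b, Cox6c, Cox7c, Atp5b, Uqcrfs1, Cs, Zic1, Prdm16, Nrf1, Gabpa, Yy1 and Tfam. The same holds for Myl2, Myl3, Tnnc1 and Tnnt1 of the slow fibre list. Alternatives were a filter on dim genes, cluster means, quantile and median scaling, trended, robust or weighted variances, 2 groups alone, other thresholds, a replicate block and leaving out each array. Replicate numbers were checked by correlating deviations from group means. Oxazolone and urushiol arrays of equal number gave 0.201, 0.197 and 0.124, all above 0.1, and control pairs of equal number -0.232 to 0.337. Challenged arrays of unequal number gave -0.18 to 0.021. Yet control array 3 with oxazolone array 2 gave 0.285, and control array 2 with urushiol array 3 gave 0.27. Such values cannot show that numbers pair arrays. As an assumption, numbers were taken to pair the challenged arrays only, though no label says so.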

Additional observations from a re-analysis of the deposited data

How the results depend on the processing

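The number of members called depended on the arrays and the spread. Leaving out each array in turn gave 2 to 56 members lower and 0 to 3 higher after oxazolone, and 1 to 56 lower and 0 to 2 higher after urushiol. The low ends came from leaving out control array 1 or 2 or challenged arrays, and the high ends from leaving out control array 3. Oxazolone against control gave 25 lower and 1 higher with dim genes left out, 29 lower with quantile scaling, 47 lower and 1 higher with array weights and 1 lower with these 2 groups alone. At an adjusted p of 0.01 it gave 1 lower, and at 0.1 it gave 33 lower and 2 higher. Of all genes 13.7% were lower with dim genes left out, 9.38% with quantile scaling, 10.4% with array weights and 3.11% with 2 groups alone, where the members' share was the smaller. Urushiol against control gave 24 lower and 0 higher with quantile scaling, 52 lower and 2 higher with array weights, and 1 lower and 0 higher with 2 groups alone, where 8.22%, 10.6% and 2.9% of all genes were lower. At 0.01 it gave 1 lower and 0 higher, and at 0.1 it gave 25 lower and 2 higher. A replicate block over all 9 arrays gave 9 lower and 1 higher (Cox6a1) after oxazolone and 5 lower and 1 higher after urushiol (all genes 6.62% and 6.14% lower), and over the 6 challenged arrays, where numbers were taken to pair, it changed no call (0 members). Urushiol against oxazolone gave 0 members under every alternative run. No alternative reversed the sign of a called result. The change between isoforms under both allergens, without 1 control array, ranged from -7.45 to -5.71 for Cox6a, from -6.24 to -4.49 for Cox7a and from -5.49 to -3.60 for Cox8, with an exact permutation p of 0.0714. The cause of these changes was not tested.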

Other observations

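At least 3 of the 9 arrays held an identical deposited value for 24 of the 96 members, against 47.8% of all genes.

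Another pair of related genes moved apart. The calcium pump of fast muscle, Atp2a1, stood at 19.12, 19.18 and 17.29 in control skin, at 8.15, 6.46 and 10.31 after oxazolone and at 12.16, 12.79 and 13.79 after urushiol. It differed by -10.22 (adjusted p = 0.00191, limma) and -5.62 (adjusted p = 0.0133). Atp2a2, the pump of slow muscle and of many non-muscle cells, keratinocytes among them, stood at 12.08, 12.30 and 13.09, at 13.86, 13.57 and 14.27, and at 14.17, 14.41 and 14.38. It rose by 1.41 (adjusted p = 0.0192) after oxazolone, a call lost for 4 of the 9 left-out arrays (control arrays 1 and 2, oxazolone arrays 1 and 3; adjusted p up to 0.0696), and by 1.83 (adjusted p = 0.00788) after urushiol, whichever array was left out.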
